A study of Mus musculus with 4 samples.

Results

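The 10 genes described here belong to Wnt signalling: the ligands Wnt2, Wnt4, Wnt5a, Wnt9a and Wnt11, the secreted antagonists Sfrp1, Sfrp2, Dkk2 and Dkk3, and the target gene Axin2. They were taken by name from 24933 genes to which the deposited transcripts could be assigned by position on the same strand, with the transcript of the longest gene body standing for each gene. All 10 were in the table, and all 10 were above 0 in every library.

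RNA-seq was done on total RNA of mouse embryonic fibroblasts (MEF), with 1 library for each of 4 conditions. Hmga2+/+ MEF were wild type and Hmga2-/- MEF lacked Hmga2, which encodes an architectural chromatin protein, and each genotype was left without the cytokine (Ctrl, water) or given human recombinant TGFB1 at 10 ng/ml for 24 h. All 4 libraries came from C57BL/6 embryos of day 15.5, from what remained of the body once head, limbs, tail and inner organs had been taken away. The cells were immortalized with simian virus, grown in 10% FCS and kept in 1% FCS overnight before treatment, so each genotype stands for an immortalized line and not for primary cells. Deposited values are RPKM, read counts corrected for transcript length and library depth, and the depths behind them were between 56140000 mapped reads in Hmga2+/+ Ctrl and 57300000 in Hmga2+/+ TGFB1. The study speaks of duplicates of an experiment, and whether the single column of a condition pools them is not stated.

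Wnt ligands are secreted lipid-modified glycoproteins that bind Frizzled receptors. With the co-receptors Lrp5 and Lrp6 they stop the destruction of beta-catenin, which then works with TCF and LEF factors on target genes such as Axin2, whereas other ligands act through Ror and Ryk receptors without beta-catenin. Secreted Frizzled-related proteins bind the ligands outside the cell, and Dickkopf proteins such as Dkk2 act on the co-receptors. In fibroblasts the pathway is known for its part in tissue remodelling and for its links to TGFB signalling.

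With 1 library per condition there are no replicates, no test across conditions was run, and no p-value is given. A gene is said to have risen or fallen, or to be higher or lower by the threshold, where 2 values differed by at least 1.5-fold, the fold used in the study. Each log2 ratio has a 95% interval from counting error only, which leaves out the spread between cultures. In a bulk sample fewer cells of one kind and less RNA per cell cannot be told apart.

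The libraries fit their labels at the genes that were checked. Hmga2 itself had 14.8 RPKM in Hmga2+/+ Ctrl and 40.7 RPKM in Hmga2+/+ TGFB1, from 3544 and 9957 reads, and 0 reads in both Hmga2-/- libraries. Ccn2, a TGFB target, had 13.2 RPKM and 173 RPKM without and with TGFB1 in Hmga2+/+ MEF, and 24.9 RPKM and 359 RPKM in Hmga2-/- MEF. Of 9 fibroblast markers 8 or 9 were at 1 RPKM or more in each library, with summed levels between 1875 and 2264 RPKM, whereas 0 of 5 epithelial markers and 0 of 5 skeletal muscle markers reached 1 RPKM in any library. The summed level of 5 endothelial markers was 3.89 and 4.86 RPKM in Hmga2+/+ Ctrl and TGFB1. In Hmga2-/- Ctrl and TGFB1 it was 7.12 and 8.16 RPKM. It was carried by Tek and Kdr, which moved in opposite directions on TGFB1, with Pecam1 and Cdh5 under 0.1 RPKM. Tek went from 2.75 to 0.33 RPKM in Hmga2+/+ MEF and from 5.65 to 0.686 RPKM in Hmga2-/- MEF. Kdr went from 1.11 to 4.46 RPKM in Hmga2+/+ MEF and from 1.455 to 7.39 RPKM in Hmga2-/- MEF. The summed level of 5 chondrocyte markers was 3.40 and 2.09 RPKM in the Ctrl libraries and 6.02 and 6.21 RPKM with TGFB1, mostly Sox9. That of 5 haematopoietic markers lay between 1.39 and 2.0 RPKM, mostly Cd68. The part of these markers in the results on the Wnt genes was not tested.

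Promoters of 5 members whose levels moved on TGFB1 are shown, since these are the stretches next to the starts of transcription whose output the RNA levels report. RefSeq promoters on GRCm38.p6 were matched for 7 of the 10 members, and those of Wnt5a, Sfrp1 and Dkk3 had no entry. Each line gives the 250 bases before the annotated start, 5′ to 3′ on the strand of the gene. Capitals mark a match on either strand to the TCF/LEF core CTTTGA, to the SMAD box CAGAC or to the AP-1 site TGANTCA. The regions are, in the order printed, chr7:98834862-98835111, chr11:59306680-59306929, chr11:108920099-108920348, chr3:83766071-83766320 and chr3:132085042-132085291, all on the plus strand.
Wnt11: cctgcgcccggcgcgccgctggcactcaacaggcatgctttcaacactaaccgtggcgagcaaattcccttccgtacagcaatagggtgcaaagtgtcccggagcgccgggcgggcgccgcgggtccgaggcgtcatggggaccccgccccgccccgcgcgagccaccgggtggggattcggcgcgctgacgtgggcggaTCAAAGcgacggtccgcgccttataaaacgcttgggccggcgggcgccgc
Wnt9a: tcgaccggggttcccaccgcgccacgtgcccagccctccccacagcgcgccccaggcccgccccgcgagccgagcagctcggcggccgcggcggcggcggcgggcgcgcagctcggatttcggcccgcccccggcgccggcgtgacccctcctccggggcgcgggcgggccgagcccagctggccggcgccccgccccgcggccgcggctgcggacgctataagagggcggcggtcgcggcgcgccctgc
Axin2: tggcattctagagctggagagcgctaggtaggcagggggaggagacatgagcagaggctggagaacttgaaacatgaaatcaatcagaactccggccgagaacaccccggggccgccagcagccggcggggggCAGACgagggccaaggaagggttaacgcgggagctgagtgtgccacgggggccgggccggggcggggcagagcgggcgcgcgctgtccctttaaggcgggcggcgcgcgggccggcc
Sfrp2: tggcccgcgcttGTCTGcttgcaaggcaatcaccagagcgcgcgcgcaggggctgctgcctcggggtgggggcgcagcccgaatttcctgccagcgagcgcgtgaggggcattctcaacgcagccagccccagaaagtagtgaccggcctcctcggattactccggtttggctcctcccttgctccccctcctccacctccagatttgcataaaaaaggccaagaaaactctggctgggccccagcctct
Dkk2: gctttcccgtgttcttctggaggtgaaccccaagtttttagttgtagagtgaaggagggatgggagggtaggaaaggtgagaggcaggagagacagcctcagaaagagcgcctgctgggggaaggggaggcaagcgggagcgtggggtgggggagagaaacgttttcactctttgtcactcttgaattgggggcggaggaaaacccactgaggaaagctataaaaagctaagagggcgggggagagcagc

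The Wnt11 promoter held the TCF/LEF core at -50 to -45 from the start, read on the other strand as TCAAAG, and the window before its second annotated start, not shown, held the SMAD box at -114 to -110. The Axin2 promoter held the SMAD box at -117 to -113, and the Sfrp2 promoter held it at -238 to -234, read on the other strand as GTCTG. None of the 3 motifs was found in the windows of Wnt9a and Dkk2, nor in those of Wnt2 and Wnt4, which are not shown. Among all 32817 RefSeq promoters of the same length, 13.8% held the TCF/LEF core, 42.2% the SMAD box and 6.75% the AP-1 site, so a match is a description of the letters and not of binding. In base composition the 5 promoters ran from a GC content of 55.6% with 7 CpG in Dkk2, through 63.6% with 16 in Sfrp2, 69.2% with 24 in Axin2 and 70.8% with 37 in Wnt11, to 84.4% with 48 in Wnt9a. All 5 were above the median of all promoters, which was 52.4% GC with 6 CpG. So were the windows not shown, with 63.6% and 20 CpG in Wnt2 and 85.2% and 44 in Wnt4. The window before the second Wnt11 start had 56.8% and 16.

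On TGFB1 the members split by role in both genotypes, apart from the scarce ligands Wnt2 and Wnt4. The ligands Wnt5a, Wnt9a and Wnt11 and the target Axin2 rose, and the antagonists Sfrp1, Sfrp2, Dkk2 and Dkk3 fell. The split did not extend to the Wnt ligands outside the 10 members. Of 11 such ligands above 0 RPKM, 4 rose and 5 fell in Hmga2+/+ MEF, and 5 rose and 5 fell in Hmga2-/- MEF. Wnt16, the most abundant ligand in both Ctrl libraries, fell in both genotypes. In Hmga2+/+ MEF 4 of the 10 members rose and 5 fell, where 15.9% and 26.5% of the 17852 genes above 0 RPKM in at least 1 library did. In Hmga2-/- MEF 4 rose and 6 fell, where 17.5% and 25.3% of these genes did. Among the 7 members with a mean of at least 1 RPKM, 3 rose and 4 fell in each genotype, whereas of the 10543 genes past that level 11.4% rose and 15.5% fell in Hmga2+/+ MEF and 13.1% rose and 14.0% fell in Hmga2-/- MEF. The median log2 change of the 10 members was -0.32 in Hmga2+/+ MEF and -0.90 in Hmga2-/- MEF, beside -0.06 and -0.01 over all genes above 0 RPKM, and it falls between members that moved in opposite directions. The members were chosen with earlier results of these data known. Counts of members, here and below, therefore cannot test whether Wnt genes moved more often than other genes.

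**Figure D1:**
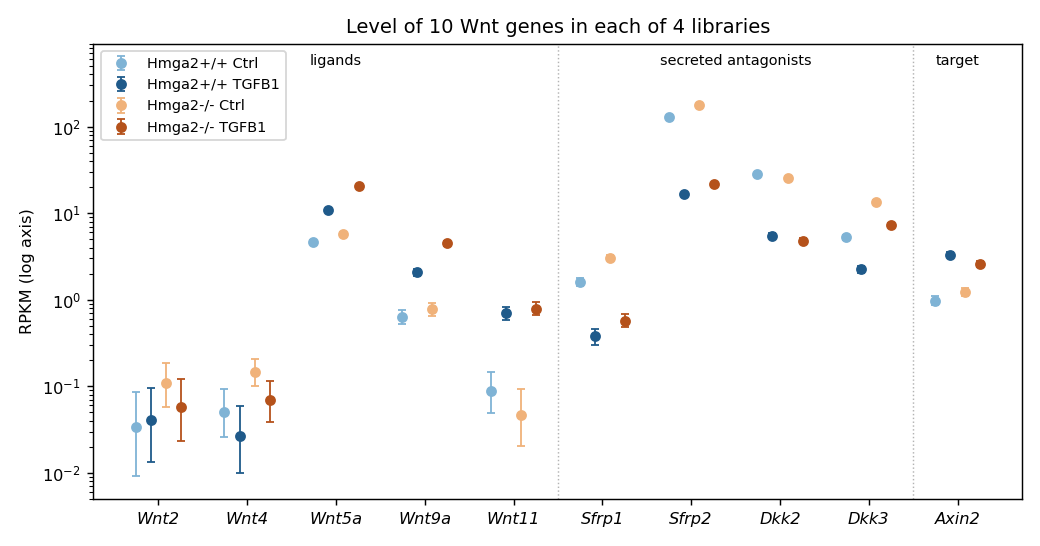
Level of each member in RPKM on a log axis, in the 4 libraries, with points for the deposited value and bars for the 95% counting interval. Wnt5a, Wnt9a, Wnt11 and Axin2 lie higher with TGFB1 in both genotypes, Sfrp1, Sfrp2, Dkk2 and Dkk3 lie lower, and Wnt2 and Wnt4 stay under 0.2 RPKM throughout.

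Wnt5a, a ligand that signals largely without beta-catenin, lies on chromosome 14 from 28505473 to 28525515 on the plus strand. It had 4.61 RPKM in Hmga2+/+ Ctrl, 10.9 RPKM in Hmga2+/+ TGFB1, 5.71 RPKM in Hmga2-/- Ctrl and 20.4 RPKM in Hmga2-/- TGFB1, from 1125 to 5055 reads. The Hmga2-/- library with TGFB1 was the highest, and both Ctrl libraries were the lowest. Wnt5a rose 2.36-fold on TGFB1 in Hmga2+/+ MEF (log2 1.24, 95% interval 1.14 to 1.34) and 3.58-fold in Hmga2-/- MEF (log2 1.84, 95% interval 1.75 to 1.93). The log2 response was larger in Hmga2-/- MEF by 0.60 (95% interval 0.47 to 0.73), which is past the threshold with the deposited scaling and at 0.55, under it, once libraries are rescaled by their median ratio.

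Wnt9a, a ligand known from joint and limb development, lies on chromosome 11 from 59306930 to 59333552 on the plus strand. Its level was 0.629 RPKM in Hmga2+/+ Ctrl, 2.08 RPKM in Hmga2+/+ TGFB1, 0.774 RPKM in Hmga2-/- Ctrl and 4.47 RPKM in Hmga2-/- TGFB1, from 117, 394, 145 and 842 reads. As with Wnt5a, the Ctrl libraries were close and the Hmga2-/- library with TGFB1 stood highest. The rise was 3.30-fold in Hmga2+/+ MEF (log2 1.72, 95% interval 1.42 to 2.03) and 5.77-fold in Hmga2-/- MEF (log2 2.53, 95% interval 2.27 to 2.79). Between the genotypes the log2 responses differed by 0.81 (95% interval 0.41 to 1.20), the larger being that in Hmga2-/- MEF.

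Wnt11, which acts in cell movement during gastrulation and in organ branching, lies on chromosome 7 from 98835112 to 98854747 on the plus strand. It was at 0.089 RPKM in Hmga2+/+ Ctrl and 0.047 RPKM in Hmga2-/- Ctrl, from 15 and 8 reads, and at 0.696 RPKM and 0.788 RPKM with TGFB1, from 120 and 135 reads. Both libraries with TGFB1 were far above both Ctrl libraries and close to each other. Wnt11 thus had the largest rise among the 10 members, 7.82-fold in Hmga2+/+ MEF (log2 2.97, 95% interval 2.19 to 3.85) and 16.8-fold in Hmga2-/- MEF (log2 4.07, 95% interval 3.05 to 5.31). The 1.10 between the responses on the log2 scale had a counting interval from -0.19 to 2.39, so a difference was not detectable at this depth, and it rests on the 8 and 15 reads of the Ctrl libraries.

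Wnt2, known as a ligand of lung mesenchyme, and Wnt4, known from kidney and reproductive tract development, were at the lower end of what these libraries can show. Wnt2, from 17988940 to 18030445 of chromosome 6 (minus strand), had 0.034 and 0.041 RPKM in Hmga2+/+ Ctrl and TGFB1 and 0.109 and 0.058 RPKM in Hmga2-/- Ctrl and TGFB1, from 4, 5, 13 and 7 reads. Wnt4, on the plus strand of chromosome 4 from 137277635 to 137299501, had 0.051 and 0.027 RPKM in Hmga2+/+ Ctrl and TGFB1 and 0.148 and 0.069 RPKM in Hmga2-/- Ctrl and TGFB1, from 11, 6, 32 and 15 reads. For both genes the Hmga2-/- Ctrl library had the most reads. Of their 4 log2 responses to TGFB1, only that of Wnt4 in Hmga2-/- MEF, -1.10 (95% interval -2.09 to -0.17), had a counting interval that left out 0. The others were 0.27 and -0.91 for Wnt2 in Hmga2+/+ and Hmga2-/- MEF and -0.92 for Wnt4 in Hmga2+/+ MEF.

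**Figure D2:**
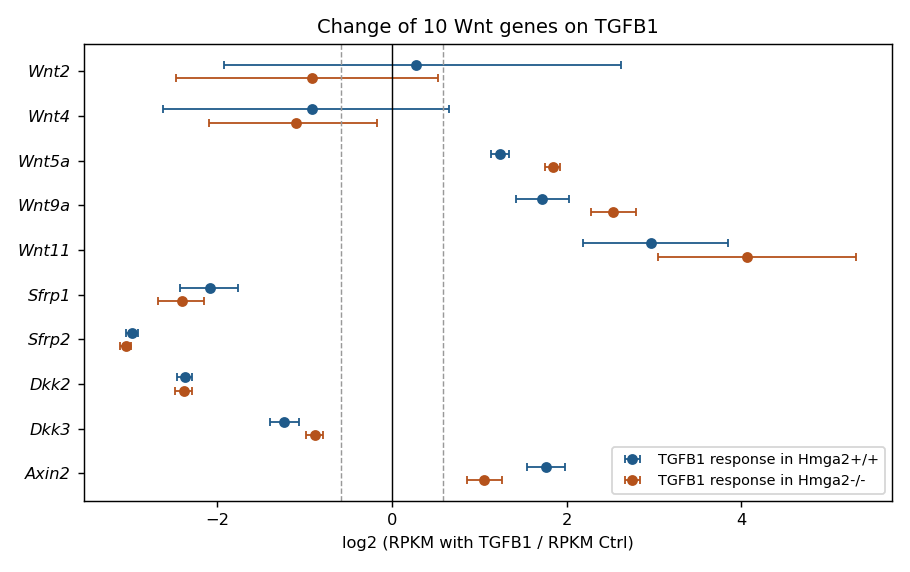
Log2 ratio of RPKM with TGFB1 to RPKM without it for each member in Hmga2+/+ and Hmga2-/- MEF, with bars for the 95% interval from counting error and dashed lines at 1.5-fold. All 4 antagonists lie left of the lower line, from -3.05 to -0.89, and Wnt5a, Wnt9a, Wnt11 and Axin2 lie right of the upper line, from 1.06 to 4.07.

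Sfrp2, a secreted Frizzled-related protein, was the most abundant member in all 4 libraries by the transcript standing for each gene. On the plus strand of chromosome 3 from 83766321 to 83774314, it had 129.964 RPKM in Hmga2+/+ Ctrl, 16.5 RPKM in Hmga2+/+ TGFB1, 178 RPKM in Hmga2-/- Ctrl and 21.5 RPKM in Hmga2-/- TGFB1, from 14563, 1889, 20061 and 2440 reads. Both Ctrl libraries were high and both TGFB1 libraries were low. The log2 change on TGFB1 was -2.98 (95% interval -3.05 to -2.91) in Hmga2+/+ MEF and -3.05 (95% interval -3.11 to -2.99) in Hmga2-/- MEF, with a difference between them of -0.07 (95% interval -0.16 to 0.02). Gm26771 overlaps Sfrp2 on the opposite strand and had at most 0.744 RPKM, in a protocol that keeps the strand.

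Dkk2, a Dickkopf protein that binds Lrp6, fell by nearly the same ratio in both genotypes. On the plus strand of chromosome 3 from 132085292 to 132180304, it had 28.6 and 5.52 RPKM in Hmga2+/+ Ctrl and TGFB1 and 25.2 and 4.83 RPKM in Hmga2-/- Ctrl and TGFB1, from 1017 to 5942 reads. The log2 changes were -2.38 (95% interval -2.47 to -2.28) and -2.39 (95% interval -2.48 to -2.29). Their difference of -0.01 had a 95% interval from -0.14 to 0.12, so counting error alone allows a small difference in either direction.

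Sfrp1, another secreted Frizzled-related protein, lies on chromosome 8 from 23411502 to 23449632 on the plus strand. It was measured at 1.59 RPKM in Hmga2+/+ Ctrl, 0.376 RPKM in Hmga2+/+ TGFB1, 3.05 RPKM in Hmga2-/- Ctrl and 0.575 RPKM in Hmga2-/- TGFB1, from 391, 94, 755 and 143 reads. Both Ctrl libraries were above both TGFB1 libraries, and within each treatment the Hmga2-/- library was the higher. On TGFB1 the log2 change was -2.08 (95% interval -2.43 to -1.76) in Hmga2+/+ MEF and -2.41 (95% interval -2.68 to -2.15) in Hmga2-/- MEF, and the difference of -0.32 had an interval from -0.74 to 0.09.

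Dkk3, a divergent Dickkopf family member counted here with the antagonists, lies on chromosome 7 from 112116019 to 112159057 on the minus strand. Its levels were 5.27 RPKM in Hmga2+/+ Ctrl, 2.24 RPKM in Hmga2+/+ TGFB1, 13.6 RPKM in Hmga2-/- Ctrl and 7.34 RPKM in Hmga2-/- TGFB1, from 429 to 2567 reads. Unlike the other 3 antagonists, it stood higher in Hmga2-/- MEF with TGFB1 than in Hmga2+/+ MEF without. The log2 change on TGFB1 was -1.23 (95% interval -1.40 to -1.07) in Hmga2+/+ MEF and -0.89 (95% interval -0.98 to -0.79) in Hmga2-/- MEF. The responses differed by 0.35 on the log2 scale (95% interval 0.16 to 0.54), under the threshold. Of the 3 Dkk3 transcripts in the table, that of 3281 bases gave a difference of 0.34. The short transcript of 228 bases gave -0.58, the opposite sign, and no interval was computed for it.

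Axin2, a scaffold of the beta-catenin destruction complex and a direct target of beta-catenin in many tissues, lies on chromosome 11 from 108920349 to 108950781 on the plus strand. The table gave 0.979 RPKM in Hmga2+/+ Ctrl, 3.32 RPKM in Hmga2+/+ TGFB1, 1.23 RPKM in Hmga2-/- Ctrl and 2.57 RPKM in Hmga2-/- TGFB1, from 233, 806, 296 and 619 reads. Both TGFB1 libraries were above both Ctrl libraries, and the Hmga2+/+ TGFB1 library was the highest. Axin2 rose 3.39-fold in Hmga2+/+ MEF (log2 1.76, 95% interval 1.55 to 1.98) and 2.08-fold in Hmga2-/- MEF (log2 1.06, 95% interval 0.85 to 1.26). The response in Hmga2-/- MEF was smaller by the threshold, with a log2 difference of -0.71 (95% interval -1.0 to -0.42). The other Axin2 transcript in the table gave -0.33, and a pseudocount of 1 RPKM gave -0.45, both under the threshold and with the same sign.

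Over the 10 members, the log2 TGFB1 response was higher in Hmga2-/- than in Hmga2+/+ MEF by the threshold for 3 (Wnt5a, Wnt9a and Wnt11) and lower for 2 (Wnt2 and Axin2), where 15.1% and 13.8% of all genes above 0 RPKM were. Among the 7 members past a mean of 1 RPKM the counts were 2 and 1, where 2.0% and 1.27% of genes at that level were. Counting intervals left out 0 for Wnt5a, Wnt9a and Axin2. Of the members with such intervals, the ligands Wnt5a and Wnt9a thus rose more and the target Axin2 rose less in Hmga2-/- MEF. Outside the members, genes that rose in both genotypes did not keep to this contrast. The ligands Wnt7b and Wnt10a had response differences of -1.62 (counting interval -2.95 to -0.29) and -0.59 (-1.22 to 0.03). Wnt1 and Wnt7a, with 0 reads in both Ctrl libraries, were at 1.10 and 2.32. The target Ccn4 was at 0.64, Nkd2 at -0.60 (-1.29 to 0.09), Myc at -0.07 and Cd44 at 0.06. The median difference of the 10 members was -0.04, beside 0.04 over all genes.

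The genotypes were then compared at the same treatment. These differences come from the same 4 libraries as the responses and are not independent of them. Without TGFB1, 4 of the 10 members were higher in Hmga2-/- MEF (Wnt2, Wnt4, Sfrp1 and Dkk3) and 1 was lower (Wnt11), where 11.3% and 11.6% of genes above 0 RPKM were, so the count of lower members was near the background. Counting intervals left out 0 for Wnt4, Sfrp1 and Dkk3. Of the 7 members past a mean of 1 RPKM, 2 were higher and 0 lower, where 2.01% and 1.46% of genes at that level were. Under TGFB1, 5 members were higher (Wnt4, Wnt5a, Wnt9a, Sfrp1 and Dkk3) and 0 lower, where 12.6% and 10.9% of genes were, and past a mean of 1 RPKM 4 were higher and 0 lower, where 2.74% and 1.67% were. The median log2 difference of the 10 members was 0.39 without TGFB1 and 0.56 under it, beside 0.00 and 0.01 over all genes.

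Dkk3 differed most between the genotypes among the members with a mean of at least 1 RPKM. It was 2.57-fold higher in Hmga2-/- MEF without TGFB1 (log2 1.36, 95% interval 1.26 to 1.47) and 3.28-fold higher under it (log2 1.71, 95% interval 1.56 to 1.87), and over its 3 transcripts the log2 difference ran from 1.34 to 1.36 and from 0.76 to 1.71. Sfrp1 was higher by 0.94 on the log2 scale without TGFB1 (95% interval 0.76 to 1.12) and by 0.61 under it (95% interval 0.23 to 1.01), the latter under the threshold at 0.58 once libraries are rescaled and at 0.19 with a pseudocount of 1 RPKM. The other 2 antagonists differed less, with Sfrp2 at 0.45 and 0.38 and Dkk2 at -0.18 and -0.19 without and with TGFB1.

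For the ligands Wnt5a and Wnt9a the genotype difference passed the threshold under TGFB1 and not without it. Wnt5a differed by 0.31 without TGFB1 (95% interval 0.19 to 0.42) and was 1.88-fold higher in Hmga2-/- MEF under it (log2 0.91, 95% interval 0.84 to 0.98). Wnt9a differed by 0.30 without TGFB1 (95% interval -0.06 to 0.66) and was 2.15-fold higher under it (log2 1.10, 95% interval 0.93 to 1.28). Wnt11, at -0.92 (95% interval -2.36 to 0.41) and 0.18 (95% interval -0.19 to 0.55), showed no difference detectable at this depth. Axin2 had the opposite signs, 0.33 without TGFB1 (95% interval 0.08 to 0.59) and -0.37 under it (95% interval -0.53 to -0.22), both under the threshold, and over its 2 transcripts the first value ran from -0.14 to 0.33. Wnt4 gave 1.54 (95% interval 0.50 to 2.67) and 1.35 (95% interval -0.12 to 2.98) and Wnt2 gave 1.68 (95% interval -0.01 to 3.76) and 0.50 (95% interval -1.38 to 2.49), from the few reads given above.

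**Figure D3:**
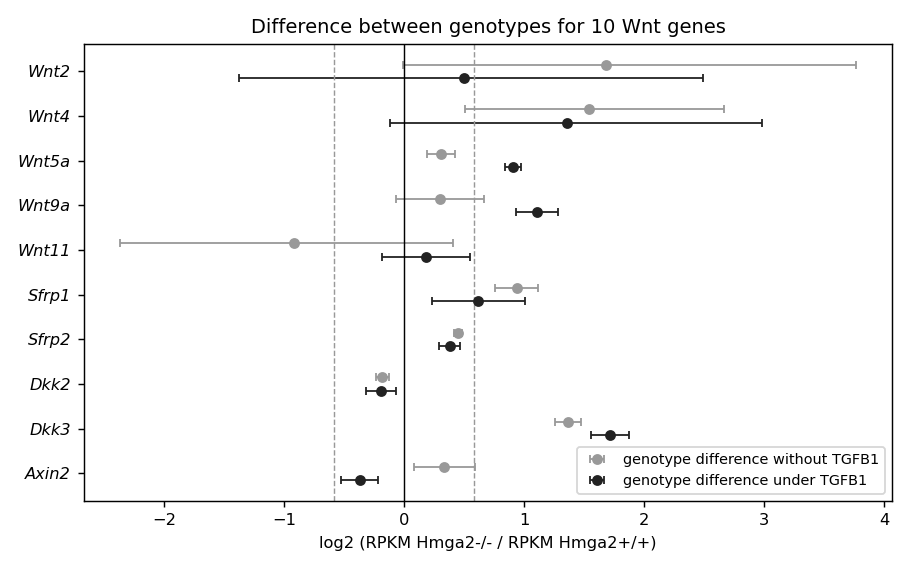
Log2 ratio of RPKM in Hmga2-/- to RPKM in Hmga2+/+ MEF for each member, without and under TGFB1, with bars for the 95% counting interval and dashed lines at 1.5-fold. Dkk3 lies right of the upper line at both treatments (1.36 and 1.71), and Wnt5a and Wnt9a do so under TGFB1 alone (0.91 and 1.10).

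Since RPKM is scaled by transcript length, the members can be ranked within a library. In both Ctrl libraries the order from the top was Sfrp2, Dkk2, Dkk3, Wnt5a, Sfrp1, Axin2 and Wnt9a, so that 3 antagonists stood above every ligand among the members. With TGFB1, Wnt5a was the second in both genotypes and Sfrp1 stood below Wnt11. A shorter Wnt5a transcript, not used for the ranks, had 23.1 RPKM in Hmga2-/- TGFB1, above Sfrp2 at 21.5 RPKM. In Hmga2+/+ Ctrl that transcript had 5.23 RPKM, close under Dkk3 at 5.27 RPKM. In Hmga2+/+ TGFB1 the order was Sfrp2, Wnt5a, Dkk2, Axin2, Dkk3, Wnt9a, Wnt11 and Sfrp1, and in Hmga2-/- TGFB1 it was Sfrp2, Wnt5a, Dkk3, Dkk2, Wnt9a, Axin2, Wnt11 and Sfrp1. Neighbours that counting error did not separate were Dkk3 and Wnt9a in Hmga2+/+ TGFB1, Dkk2 and Wnt9a in Hmga2-/- TGFB1, Wnt2 and Wnt4 in every library, Wnt11 and Wnt4 in Hmga2+/+ Ctrl, and Wnt2 and Wnt11 in Hmga2-/- Ctrl.

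The members were then set in their families. The RPKM of 19 Wnt ligands summed to 16.8 in Hmga2+/+ Ctrl, 19.3 in Hmga2+/+ TGFB1, 20.3 in Hmga2-/- Ctrl and 31.6 in Hmga2-/- TGFB1. The sum moved less than its makeup. Wnt16, which is no member, held the largest share without TGFB1, 40.6% and 45.9% in Hmga2+/+ and Hmga2-/- MEF, and fell from 6.82 to 1.51 RPKM and from 9.33 to 2.24 RPKM. Wnt10b fell as well, by 0.89 and 0.78 on the log2 scale. Wnt5a went from 27.4% to 56.3% of the ligand sum on TGFB1 in Hmga2+/+ MEF and from 28.1% to 64.7% in Hmga2-/- MEF, and Wnt9a became the second with 10.7% and 14.1%. The sum was 1.56-fold higher with TGFB1 in Hmga2-/- MEF and 1.15-fold in Hmga2+/+ MEF.

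The 13 secreted antagonists summed to 166 RPKM in Hmga2+/+ Ctrl, 24.9 RPKM in Hmga2+/+ TGFB1, 220 RPKM in Hmga2-/- Ctrl and 34.7 RPKM in Hmga2-/- TGFB1. The sum was thus 6.67-fold lower with TGFB1 in Hmga2+/+ MEF and 6.35-fold lower in Hmga2-/- MEF. Sfrp2 alone made up 78.1%, 66.2%, 80.6% and 61.9% of it in the same order of libraries. The other 9 antagonists on the list, such as Notum, an enzyme that removes the lipid of Wnt proteins, had 0 members with a mean of at least 1 RPKM, Notum itself being at 0.473, 0.157, 0.265 and 0.079 RPKM.

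**Figure D4:**
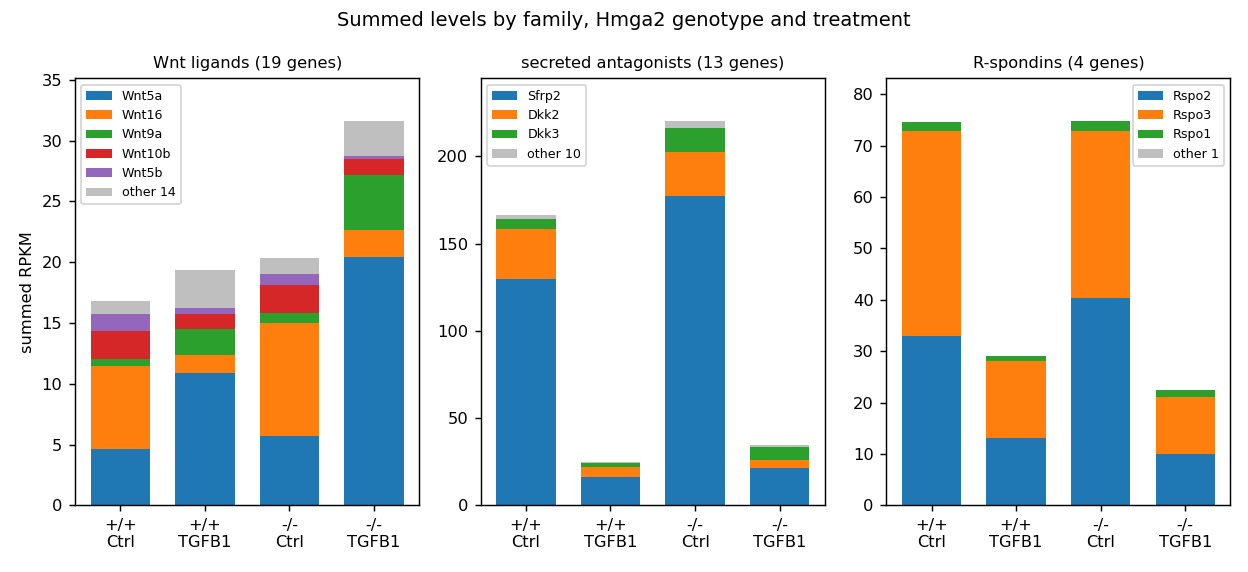
Summed RPKM of 19 Wnt ligands, 13 secreted antagonists and 4 R-spondins in the 4 libraries, as stacked bars from 0 with the leading genes in colour. The antagonist and R-spondin bars are lower with TGFB1 in both genotypes, and within the ligand bars Wnt5a widens as Wnt16 narrows.

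The remaining genes of the pathway were counted by role from a list of 81 genes, of which 75 were above 0 RPKM and 45 had a mean of at least 1 RPKM. Of these 45, 6 rose and 17 fell on TGFB1 in Hmga2+/+ MEF and 6 rose and 16 fell in Hmga2-/- MEF, beside 11.4% and 15.5%, and 13.1% and 14.0%, of all genes at that level. The median log2 change was -0.34 in both genotypes, beside -0.04 and 0.02 over all genes at that level. By genotype, 1 was higher and 1 lower in Hmga2-/- MEF without TGFB1, and 3 were higher and 1 lower under it, beside 2.01% and 1.46%, and 2.74% and 1.67%, of all genes at that level, so the counts without TGFB1 were near the background. The 75 genes above 0 RPKM gave 16 rising and 27 falling in Hmga2+/+ MEF and 19 and 27 in Hmga2-/- MEF, beside 15.9% and 26.5%, and 17.5% and 25.3%, of all genes above 0 RPKM.

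R-spondins, secreted proteins that strengthen Wnt signalling by removing the ligases Znrf3 and Rnf43 from the membrane, were among the most abundant genes of the list that fell. Rspo3 had 39.8 and 15.0 RPKM in Hmga2+/+ Ctrl and TGFB1 and 32.4 and 11.2 RPKM in Hmga2-/- Ctrl and TGFB1. Rspo2 went from 33.0 to 13.1 RPKM in Hmga2+/+ MEF and from 40.3 to 9.92 RPKM in Hmga2-/- MEF, log2 changes of -1.33 and -2.02, and the response was stronger in Hmga2-/- MEF by the threshold, at -0.69 (95% interval -0.80 to -0.59). The sum of the 4 R-spondins was 2.56-fold lower with TGFB1 in Hmga2+/+ MEF and 3.32-fold lower in Hmga2-/- MEF. Their receptor Lgr4 fell as well, by 1.06 and by 0.60 on the log2 scale, and Rspo1, with less RNA, by 0.95 in Hmga2+/+ MEF, with a value of -0.51 in Hmga2-/- MEF. Of the 2 ligases, Znrf3 rose, with a log2 change of 0.66 and 0.80, whereas Rnf43, which is under 1 RPKM and was named after its values were seen, was at -0.31 (95% interval -0.62 to 0.00) in Hmga2+/+ MEF and fell by 0.72 in Hmga2-/- MEF.

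Of 13 receptors and co-receptors with a mean of at least 1 RPKM, 1 rose and 3 fell in each genotype, near the shares of all genes at that level given above. Fzd6 went from 4.89 to 12.1 RPKM in Hmga2+/+ MEF and from 5.61 to 13.0 RPKM in Hmga2-/- MEF. Ror1, a receptor of Wnt5a, fell by 2.12 and by 1.59 on the log2 scale in Hmga2+/+ and Hmga2-/- MEF, from 1.52 and 1.78 RPKM, while Wnt5a itself rose. Ror2, named after its values were seen, had more RNA, 5.25 and 6.12 RPKM in the same Ctrl libraries. It stayed under the threshold, at -0.34 in Hmga2+/+ MEF and -0.30 in Hmga2-/- MEF. Fzd8 fell in both, by 0.99 and 0.82. Fzd2 fell by 0.64 in Hmga2+/+ MEF and was at -0.42 in Hmga2-/- MEF, and Fzd4 was at -0.46 in Hmga2+/+ MEF and fell by 0.88 in Hmga2-/- MEF, where its Ctrl level was higher by 0.61. Ryk, the most abundant receptor, stayed between 27.7 and 35.1 RPKM and under the threshold in all 5 comparisons.

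Of 10 genes of the Dishevelled proteins and the destruction complex, Amer1 alone passed the threshold on TGFB1, with log2 changes of -0.61 in Hmga2+/+ cells and -1.0 in Hmga2-/- cells, and 0 did so between the genotypes. Csnk1a1, the most abundant of them, lay between 65.3 and 83.4 RPKM. Ctnnb1, which encodes beta-catenin, lay between 72.9 and 85.6 RPKM in the 4 libraries. Wls, which carries Wnt proteins to the cell surface, was at 59.2 and 57.2 RPKM in the Ctrl libraries and at 87.4 and 82.4 RPKM with TGFB1 in Hmga2+/+ and Hmga2-/- MEF, just under the threshold at log2 0.56 and 0.53.

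Of the 3 TCF genes with a mean of at least 1 RPKM, Tcf7 rose and the others fell. Tcf7 had log2 changes of 1.22 in wild-type and 1.23 in Hmga2-/- cells, from about 1 RPKM. Tcf7l2, the most abundant of them, went from 38.6 to 21.7 RPKM and from 44.4 to 17.5 RPKM, and Tcf7l1 fell by 1.14 and 1.10 on the log2 scale. Bcl9 and Bcl9l, which join beta-catenin to the transcription machinery, fell by 0.81 to 0.97.

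Target genes named in other tissues did not move as 1 group with Axin2. Ccn4, first described as a Wnt1-induced gene, went from 6.31 to 36.4 RPKM in Hmga2+/+ MEF and from 6.08 to 54.7 RPKM in Hmga2-/- MEF, and the log2 response was larger in Hmga2-/- MEF by 0.64 (95% interval 0.54 to 0.74). Cd44, an adhesion receptor for hyaluronan, rose from 13.4 to 59.6 RPKM and from 18.7 to 86.7 RPKM, and Myc, a growth regulator, rose from 5.17 to 19.3 RPKM and from 7.08 to 25.2 RPKM. Ccnd1, which encodes the cell cycle protein cyclin D1, fell by 0.62 in Hmga2+/+ and by 1.21 in Hmga2-/- MEF on the log2 scale, and Twist1 fell by 0.70 and 1.05. So of 5 such genes with a mean of at least 1 RPKM, 3 rose with Axin2 and 2 fell, in both genotypes.

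**Figure D5:**
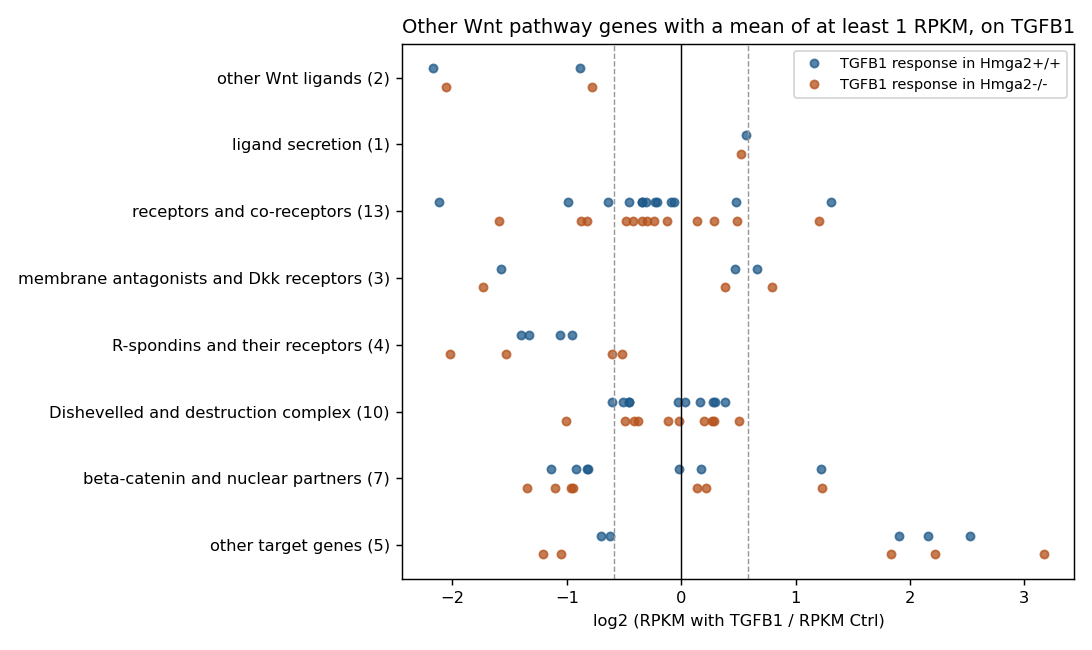
Log2 ratio of RPKM with TGFB1 to RPKM without it for the 45 other pathway genes with a mean of at least 1 RPKM, 1 point per gene and genotype, by role with the number of genes in brackets and dashed lines at 1.5-fold. All 4 genes of the R-spondin row are below 0 in both genotypes, the 10 genes of the destruction complex row lie between -1.0 and 0.50, and the target row splits into 3 genes that rose and 2 that fell.

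Apcdd1 is a membrane protein that restrains Wnt signalling. Of the other pathway genes with a mean of at least 1 RPKM, it alone was lower by the threshold in Hmga2-/- MEF at both treatments. It had 5.14 RPKM in Hmga2+/+ Ctrl, 1.73 RPKM in Hmga2+/+ TGFB1, 3.15 RPKM in Hmga2-/- Ctrl and 0.95 RPKM in Hmga2-/- TGFB1. Each TGFB1 library was below its Ctrl library, and each Hmga2-/- library was below the Hmga2+/+ library of the same treatment. The genotype difference was -0.70 (95% interval -0.87 to -0.54) without TGFB1 and -0.86 (95% interval -1.16 to -0.57) under it, and the TGFB1 response was -1.57 on the log2 scale in wild-type and -1.73 in Hmga2-/- cells. Kremen1, a Dkk receptor and the most abundant gene of its role, lay between 4.13 and 5.76 RPKM.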

How the data were processed

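RNA-seq was measured in 4 libraries of immortalized MEF, 1 per condition, grouped by their labels. Per the study's methods and the submitters' processing notes, the authors trimmed reads with Trimmomatic, aligned them to mm10 with HISAT2 2.1.0 and quantified UCSC known genes on the strand with HOMER. The values deposited by the authors are RPKM for 63759 transcripts; the file header names exons as the counted feature and the methods name genes. The transcript length, in bases, is the other column deposited by the authors that was used.

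Transcripts were named after the GENCODE vM21 gene on their strand that covered at least 50% of them (57708 named, 90.5%). The members and lists were chosen with earlier results of these data known. Besides the members, a pathway gene was named where its mean was at least 1 RPKM and it passed 1.5-fold in a comparison, or where it was the most abundant of its role. Mapped reads were derived as the depth that turns RPKM into whole reads in transcripts under 600 bases. All tested values lay within 0.1 of a whole read, and 3 reads on 1000 bases are worth 0.0524 to 0.0534 RPKM.

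A value of 0 RPKM was set to 0.001. Ratios of 2 libraries have exact conditional binomial intervals, and differences of 2 responses have Poisson intervals on the log scale, both from counting error only. Since the values are RPKM without replicates, no count test was run. The steps were tested on simulated data. Alternatives changed the pseudocount, scaling, filter, fold and transcript. Python 3.11.15, numpy 2.4.6, pandas 2.3.3, scipy 1.17.1 and matplotlib 3.10.9 were used. One gene set for the check of the treatment is not reported here. ChIP-seq and human data were not used here.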

Additional observations from a re-analysis of the deposited data

Results flagged for a closer look

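In 3 pathway genes that are no members, RPKM was lower with TGFB1 in one genotype and higher in the other, with each counting interval on its own side of 0. Fzd7, a Frizzled receptor, had a log2 change of -0.21 (95% interval -0.30 to -0.13) in Hmga2+/+ and 0.14 (95% interval 0.07 to 0.21) in Hmga2-/- MEF, a difference of 0.35. Ptk7, a co-receptor of planar cell polarity, had -0.06 (95% interval -0.13 to -0.001) and 0.49 (95% interval 0.43 to 0.55), a difference of 0.55. Rescaling libraries by their median ratio shifts log2 changes in Hmga2+/+ MEF by 0.02. Whether the Hmga2+/+ interval of Ptk7 leaves out 0 thus depends on the scaling. Apc, a scaffold of the destruction complex, had 0.28 (95% interval 0.24 to 0.31) and -0.11 (95% interval -0.15 to -0.08), a difference of -0.39. None of these values reached 1.5-fold. The differences between the genotypes were not tested, since each condition is 1 library.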

How the results depend on the processing

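Counts of members past 1.5-fold on TGFB1 stayed within 1.5 times under all 7 alternatives in both genotypes. Of members higher in Hmga2-/- MEF without TGFB1, 2 in place of 4 remained past the threshold with a pseudocount of 1 RPKM or a mean of at least 1 RPKM, and of members lower, 0 in place of 1 with either pseudocount (1 or 0.1 RPKM), with that mean and at 2-fold. Under TGFB1, 3 in place of 5 were higher with either pseudocount and at 2-fold. For the difference of the responses, 1 in place of 3 was higher at 2-fold, and lower were 0 in place of 2 with a pseudocount of 1 RPKM and 1 with a pseudocount of 0.1 RPKM, with that mean and at 2-fold. Of 70 such counts 56 stayed within 1.5 times. Rescaling moved all log2 ratios by 0.05 or less after rounding and took Wnt5a (difference of the responses) and Sfrp1 (genotype under TGFB1) under the threshold. A pseudocount of 1 RPKM took 11 member values under the threshold, of Wnt2, Wnt4, Wnt11, Sfrp1 (genotype under TGFB1) and Axin2 (difference of the responses). No paired analysis was possible because each condition has 1 library. Depth limits Wnt2, Wnt4 and Wnt11 without TGFB1.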

Other observations

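Some pathway genes with a mean under 1 RPKM moved on TGFB1 or differed between the genotypes. They stood outside the naming rule, so they were chosen after their values were seen. Lef1, a TCF/LEF factor and a target of beta-catenin, was at 0.054 RPKM in Hmga2+/+ Ctrl and 0.063 RPKM in Hmga2-/- Ctrl and at 1.93 and 1.80 RPKM with TGFB1. The log2 change was 5.16 (95% interval 4.30 to 6.17) in Hmga2+/+ and 4.84 (95% interval 4.04 to 5.76) in Hmga2-/- MEF, and the genotypes differed by -0.10 (95% interval -0.30 to 0.11) under TGFB1.

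Lgr6, an R-spondin receptor, was at 0.114 and 0.079 RPKM in the Hmga2+/+ and Hmga2-/- Ctrl libraries and at 1.57 and 1.34 RPKM with TGFB1, while Lgr4 fell. Nkd2, an inhibitor of Dishevelled, went from 0.206 to 1.55 RPKM and from 0.232 to 1.15 RPKM. Its paralogue Nkd1 went the other way, from 0.456 to 0.15 RPKM and from 0.313 to 0.070 RPKM. The ligand Wnt7b went from 0.037 to 0.747 RPKM and from 0.084 to 0.553 RPKM, and the ligand Wnt10a from 0.474 to 1.42 RPKM and from 0.570 to 1.13 RPKM. Wnt5b, the closest relative of Wnt5a, went the other way, from 1.46 to 0.495 RPKM and from 0.957 to 0.275 RPKM. Lgr5 was lower in Hmga2-/- MEF at both treatments, with log2 differences of -1.68 (95% interval -2.21 to -1.18) without TGFB1 and -1.93 (95% interval -2.53 to -1.37) under it, at 0.533 RPKM or less. Its log2 changes on TGFB1 stayed under the threshold, at -0.17 in Hmga2+/+ and -0.42 in Hmga2-/- MEF. These are values of single libraries.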
